A study of Mus musculus with 38 samples.

Results

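The 4 cytochrome P450 genes that turn cholesterol into bile acids were examined for histone marks in mouse liver: Cyp7a1, Cyp7b1, Cyp8b1 and Cyp27a1. Members were all peaks that overlap 1 window per gene in genome build mm9, namely chr4:6160000-6230000 for Cyp7a1, chr3:17930000-18190000 for Cyp7b1, chr9:121790000-121850000 for Cyp8b1 and chr1:74740000-74810000 for Cyp27a1. This gave 197 of the 384017 peaks in the 12 peak lists of the study, 43 at Cyp7a1, 82 at Cyp7b1, 35 at Cyp8b1 and 37 at Cyp27a1, and 10 of the 197 crossed a window edge. The window of Cyp7b1, at 260 kb, was the longest, and the other windows spanned 60 to 70 kb. By mark, the members numbered 20 peaks of H3K4me3, 45 of H3K27ac, 99 of H3K4me1, 29 of H3K36me3 and 4 of H3K27me3, and H3K9me3 had 0 peaks at any of the 4 loci.

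The livers came from CD-1 mice of both sexes, aged 8 weeks, and CD-1 is an outbred stock. Chromatin immunoprecipitation and sequencing was done with antibodies to 6 histone modifications. The labels list 34 histone libraries. H3K4me1 and H3K4me3 have 4 male and 3 female libraries, H3K27ac and H3K27me3 have 3 per sex, and H3K36me3 and H3K9me3 have 2 per sex. All libraries of a mark and sex carry the same peak file, so each of the 12 combinations is 1 list and animals cannot be compared with each other. Each peak comes with a log2 ratio (male over female, above 0 where male signal is higher), a p-value and a call from the authors' deposited table, and every log2 ratio, sex p-value and call below is taken from that table unless it is named otherwise. A call needs an absolute log2 ratio of at least 1 and a p below 0.001, a rule that matched the deposited call for all 384017 peaks. Those p-values come with 1 list per mark and sex, whose libraries appear pooled, and say nothing of the spread between mice. Intervals given for read counts are exact Poisson 95% intervals, which cover counting error only, since reads without molecular identifiers are not independent molecules. In whole liver, more cells carrying a mark and more of the mark per cell cannot be told apart.

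Bile acids are made from cholesterol in hepatocytes by a classical and an alternative route. Cyp7a1 encodes the rate-limiting enzyme of the classical route, and Cyp8b1 encodes the sterol hydroxylase that sets how much cholic acid is made. Cyp27a1 encodes the mitochondrial sterol hydroxylase that starts the alternative route, and Cyp7b1 encodes the oxysterol hydroxylase that follows it and also acts on steroid hormones. Among the marks, H3K4me3 is found at active promoters, H3K4me1 at enhancers and around promoters, H3K27ac at both when they are active, and H3K36me3 over transcribed gene bodies. H3K27me3 and H3K9me3 are marks of silent chromatin. The growth hormone pattern, which differs between male and female rodents, is known to set much of the sex difference in liver P450 genes.

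The promoter sequences are shown for Cyp8b1 and Cyp27a1, whose main H3K4me3 peaks ranked highest of the 4 genes by reads. The RefSeq promoter table (build GRCm38.p6) holds 2 of the 4 genes, and Cyp7a1 and Cyp7b1 are named only. Each line gives the 250 bases before the annotated start, read 5′ to 3′ in the direction of the gene, and capitals mark the motif matches described next. The Cyp8b1 stretch lies at chr9:121916306-121916555 on the minus strand and the Cyp27a1 stretch at chr1:74713285-74713534 on the plus strand, both in GRCm38.p6 and not in the mm9 build used everywhere else.
Cyp8b1: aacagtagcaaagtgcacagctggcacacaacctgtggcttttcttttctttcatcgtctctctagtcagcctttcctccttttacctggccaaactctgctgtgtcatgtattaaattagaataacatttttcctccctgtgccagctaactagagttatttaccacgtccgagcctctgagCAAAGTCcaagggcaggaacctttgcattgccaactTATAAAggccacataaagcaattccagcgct
Cyp27a1: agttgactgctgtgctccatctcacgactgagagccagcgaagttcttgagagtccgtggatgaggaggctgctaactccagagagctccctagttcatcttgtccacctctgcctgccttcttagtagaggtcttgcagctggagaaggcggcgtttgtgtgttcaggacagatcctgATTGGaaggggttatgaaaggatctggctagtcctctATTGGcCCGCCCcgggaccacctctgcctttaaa
Searched on both strands were TATAAA (the TATA box), CCAAT (the CCAAT box), GGGCGG (the GC box), AGGTCA (the core of many nuclear receptor sites), CAAAGTC (a core of HNF4 sites) and TTCNNNGAA (the STAT site), and no matches found here overlap. Cyp8b1 held TATAAA with its first base 31 bases before the start, a motif found in the same 250 bases of 12.4% of 32851 promoters, and CAAAGTC with its first base 67 bases before the start, found in 3.84%. Cyp27a1 held CCAAT on the opposite strand at 2 places, starting 71 and 34 bases before the start, and GGGCGG on the opposite strand starting 28 bases before it. CCAAT occurred in 33.8% and GGGCGG in 32.7% of promoters, AGGTCA in 14% and TTCNNNGAA in 7.02%, and the last 2 were not in these letters. The Cyp8b1 stretch had 4 CG pairs and 44.8% G and C, and the Cyp27a1 stretch 7 CG pairs and 54.0%, against medians of 6 and 52.4% over all promoters.

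Reads inside peaks ranged from 1526754 in the male H3K9me3 list to 20459697 in the female H3K4me1 list, and for H3K4me3 they were nearly equal, at 5087982 male and 5084261 female. The male H3K4me1 list held 12562838. Read counts of single peaks below are not scaled to these totals. The tissue label was checked at promoters that could be located in mm9. Of 8 hepatocyte marker genes 5 were located, and all 5 had both H3K4me3 and H3K27ac in both lists. Of 4 located Kupffer cell and leukocyte markers, 0 had H3K4me3 and 1 (Ptprc) had H3K27ac, and of 2 stellate cell markers 1 (Lrat) had H3K4me3 in both lists and 0 had H3K27ac. The cholangiocyte marker Epcam and the endothelial marker Stab2 had H3K4me3 in the male list only, Spp1 and Stab2 had H3K27ac in both lists, and the neuronal and islet gene Neurod1 had neither mark. What part the share of such cells has in the sex ratios below was not tested.

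Cyp7b1 held 26 of the 27 sex calls at the 4 loci. Of its 82 peaks, 26 (31.7%) were called male and 0 female, 20 of them in the male list and 6 in the female list, with log2 ratios from 1.03 to 3.02. At Cyp7a1, 1 of 43 peaks (2.33%) was called male and 0 female, and at Cyp8b1 and Cyp27a1 0 of 35 and 0 of 37 were called. By mark, the calls at Cyp7b1 were 22 of 39 H3K4me1 peaks (56.4%), 3 of 17 H3K27ac peaks (17.6%) and 1 of 7 H3K4me3 peaks (14.3%), and the call at Cyp7a1 was 1 of 5 H3K4me3 peaks. Over both whole lists, 4.54% of H3K4me1 peaks were called male and 2.28% female, 1.19% and 1.91% of H3K27ac peaks, and 2.77% and 0.907% of H3K4me3 peaks. For H3K36me3 0.321% of islands were called male and 0.213% female, and for H3K27me3 0.415% and 0.0253%, and 0 members of these marks were called. With counts of 1 to 3 calls, the shares for H3K27ac and H3K4me3 rest on few peaks. Peaks of the male and female lists over the same bases were counted separately. Merged where they overlap, the Cyp7b1 peaks made 25 regions of H3K4me1, 19 with a male call. H3K27ac made 10 regions, 1 with a male call, and H3K4me3 made 4, 1 with a male call. Among the best-scoring 50% of the peaks of each list, 10 calls were at Cyp7b1 and 0 at Cyp7a1. The share called among the best-scoring peaks of the whole lists was not computed, so these counts have no comparison.

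**Figure D1:**
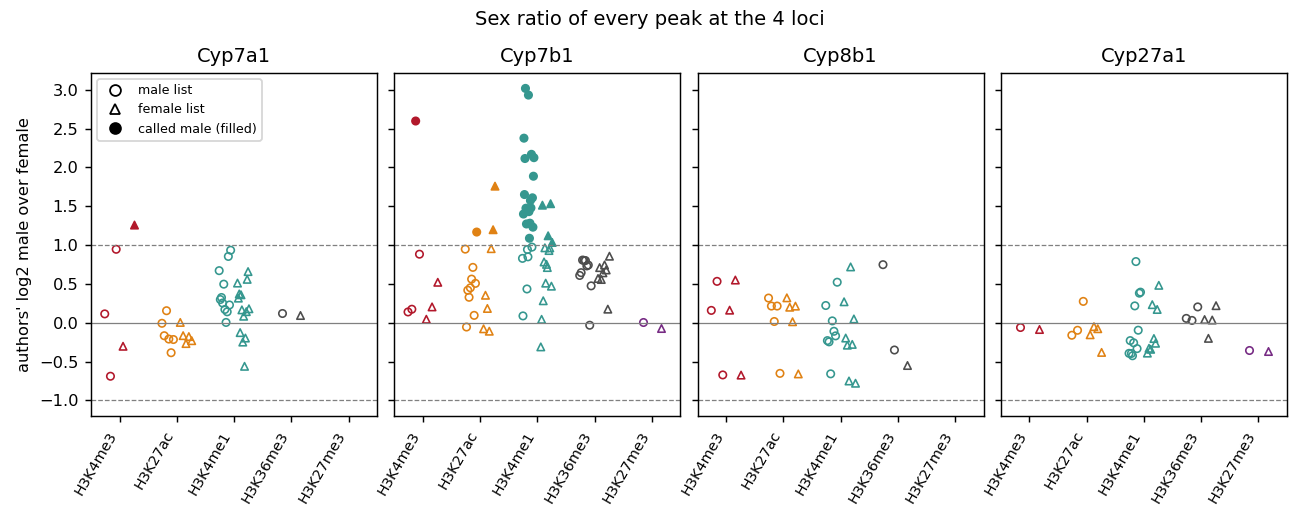
Deposited male over female log2 ratio (vertical axis) for each of the 197 peaks, by gene and mark. Circles are peaks of the male list, triangles peaks of the female list, filled symbols are called male, and dashed lines mark log2 ratios of 1 and -1. Cyp7b1 holds 26 of the 27 filled symbols, 22 of them H3K4me1, and no peak lies below -1.

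Each gene had 1 main H3K4me3 peak, taken here as the male-list peak with the most reads, and distances below run along the chromosome from its midpoint. Its level, in RPKM (reads per kb, scaled here to the reads inside all peaks of the list), was highest at Cyp8b1 with 67.9 (64.6 to 71.3) in the male list, then 43.6 (41.0 to 46.2) at Cyp27a1, 38.5 (35.9 to 41.3) at Cyp7b1 and 23.4 (20.9 to 26) at Cyp7a1. The intervals of Cyp27a1 and Cyp7b1 overlap, and the others do not. In the female list the level was 62.5 (59.2 to 65.9) at Cyp8b1, 50.8 (47.8 to 53.9) at Cyp27a1 and 39.2 (35.3 to 43.3) at Cyp7b1, whose intervals do not overlap. At Cyp7a1 the main male peak was met by 2 weaker female-list peaks, the stronger of which stood at 13.6 RPKM. The order was thus the same in both lists. In both lists H3K27ac and H3K4me1 peaks overlapped the main peak of each of the 4 genes, and H3K27me3 overlapped none of them. H3K36me3 overlapped it at all 4 genes in the male list, and at Cyp7a1 and Cyp27a1 but not Cyp7b1 or Cyp8b1 in the female list.

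**Figure D2:**
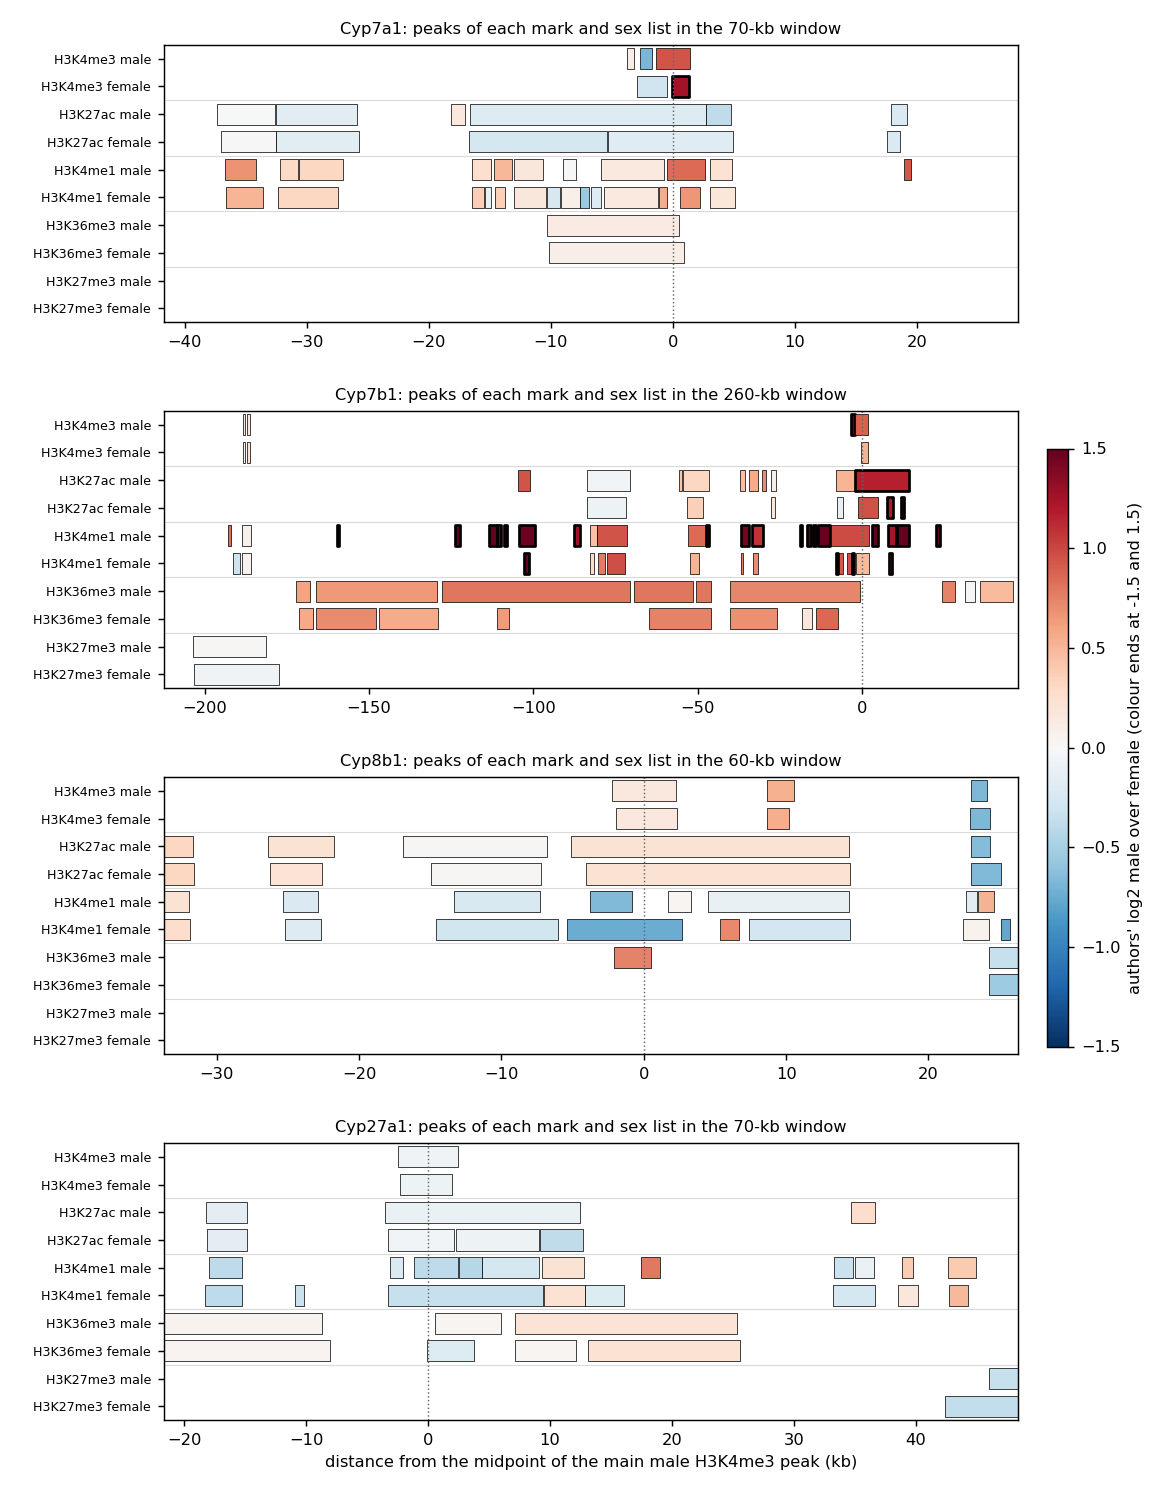
Peaks of each mark in the male and female lists, drawn to scale against distance from the midpoint of the main male H3K4me3 peak in kb (horizontal axis, a different scale for each gene). Colour gives the deposited male over female log2 ratio and thick outlines mark peaks called male. The thick outlines stand at Cyp7b1 in 3 marks and at Cyp7a1 in 1 female-list H3K4me3 peak. The H3K36me3 islands of Cyp7b1 cover more of the window in the male row than in the female row.

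At Cyp7a1 the marks differed in direction. The main H3K4me3 peak at chr4:6200360-6203086 held 324 reads (290 to 361) in the male list and had a log2 ratio of 0.95 (the authors' p = 4.04e-12), which just misses the call. The female-list peak inside its span, chr4:6201656-6203055 with 97 reads (78.7 to 118), had a log2 ratio of 1.26 (the authors' p = 4.68e-14) and is the only called peak of the locus. The peaks overlap, and of this pair only the narrower female-list peak is called. On the other side of the midpoint, the male-list peak at chr4:6199009-6199990 had 46 reads and a log2 ratio of -0.69 (the authors' p = 0.00803), and the female-list peak at chr4:6198763-6201215 had 155 reads and a ratio of -0.30 (p = 0.0976). A last male-list peak, with 27 reads and a ratio of 0.11, had no partner in the female list.

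H3K27ac and H3K4me1 covered much of the Cyp7a1 window. H3K27ac covered 50.3% of it in the male list and 48.5% in the female one, against 5.04% and 4.45% of the autosomes. The widest H3K27ac peak, chr4:6185117-6204429 in the male list, held 2549 reads (2451 to 2650), which places it in the top 2.58% of that list, and its log2 ratio was -0.21 (the authors' p = 1.76e-05). Its female counterpart was split into peaks of 1216 and 1086 reads with ratios of -0.27 and -0.18. Of the 11 H3K27ac peaks 9 had a ratio below 0, with a median of -0.18. The median over all peaks was -0.01 in the male list and -0.12 in the female list, and over peaks shared by both lists it was -0.06 in either list. H3K4me1 had the opposite sign, with 21 of 25 ratios above 0 and a median of 0.25. Over all peaks the medians were 0.16 in the male list and -0.09 in the female list, and over the shared peaks 0.07 and 0.05. The H3K4me1 peak at chr4:6201232-6204368, next to the midpoint, had 230 reads and a ratio of 0.85 (the authors' p = 2.25e-11), and the female-list peak inside it had 129 reads and a ratio of 0.66. A pair of distal elements at -29.2 and -35.0 kb from the midpoint carried H3K27ac with ratios from -0.17 to 0.00 and H3K4me1 with ratios from 0.30 to 0.67. The peaks with the most H3K4me1 reads lay in the former, with 404 reads (366 to 445) in the male list and 682 (632 to 735) in the female one. These counts are not scaled to the list totals and the peaks differ in width. Their deposited ratios were 0.325 and 0.317.

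Cyp7a1 carried 1 H3K36me3 island per list, at chr4:6191401-6202200 in the male list with 527 reads (483 to 574) and at chr4:6191601-6202600 in the female list with 434 reads (394 to 477). Their log2 ratios were 0.12 (the authors' p = 0.226) and 0.10 (p = 0.289). The islands end at the main H3K4me3 peak and run to lower coordinates from it. No island of H3K27me3 or H3K9me3 met the window.

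Cyp8b1 had the highest H3K4me3 level of the 4 genes, with small H3K4me3 and H3K27ac sex ratios there. The main H3K4me3 peak at chr9:121821473-121825966 held 1552 reads (1476 to 1631) in the male list and its partner at chr9:121821768-121826047 held 1360 (1289 to 1434) in the female list. They rank in the top 0.830% and 1.09% of their lists by reads, and their log2 ratios were 0.16 in both (the authors' p = 0.00627 and 0.00518). The H3K27ac peak over it spanned 19.5 kb, chr9:121818591-121838133, with 5953 reads (5803 to 6106) in the male list, and chr9:121819684-121838240 with 3561 reads (3445 to 3680) in the female list. These are in the top 0.342% and 0.488% by reads. The deposited log2 ratio was 0.21 in both (the authors' p = 1.97e-10 and 3.5e-10). The male H3K27ac list has 19253391 reads inside peaks and the female list 12837285, and the levels were 15.8 (15.4 to 16.2) and 14.9 (14.5 to 15.4) RPKM. In the female list an H3K27ac peak at Cyp27a1 was as high, at 16.2 (15.3 to 17.2).

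H3K4me1 ran the other way at Cyp8b1. Of its 16 peaks 6 had a ratio above 0, and the median was -0.18. The female-list peak over the main H3K4me3 peak, chr9:121818348-121826396 with 1230 reads (1162 to 1301), had a log2 ratio of -0.75 (the authors' p = 2.43e-29), and the male-list peak at chr9:121819970-121822883 with 244 reads (214 to 277) had -0.66 (p = 6.53e-12). Neither reaches the call. The peaks with the most H3K4me1 reads were chr9:121828260-121838131 in the male list, with 929 reads and a ratio of -0.11, and chr9:121809089-121817693 in the female list, with 1425 reads and a ratio of -0.29 (the authors' p = 9.95e-07). The weak element at the far edge, at 23.6 kb from the midpoint, had ratios of -0.67 for H3K4me3 and -0.65 and -0.66 for H3K27ac, in lists of both sexes. The H3K4me1 peaks there were not on the same side throughout, with ratios of 0.52 and -0.17 in the male list and 0.05 in the female list. A second female-list H3K4me1 peak, at 25.4 kb with 43 reads and no male partner, had -0.78 (the authors' p = 0.0292).

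H3K36me3 covered 7.67% of the Cyp8b1 window in the male list and 3.33% in the female one, below the 12.5% and 12.8% of the autosomes. The male list had a weak island over the main peak, chr9:121821601-121824200 with 89 reads (71.5 to 110) and a ratio of 0.75 (the authors' p = 0.00768), with no partner in the female list. The other islands start near the window edge and extend past it, and in a window widened by 10 kb the shares were 9.75% in the male list and 11.8% in the female one, or 0.83 times as much in the male list. No H3K27me3 island met the window.

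RefSeq places Cyp8b1 between Ackr2 and 1700048O20Rik, and the starts of both neighbours could be located in mm9, each by 1 aligned IgG read, at chr9:121807474 and chr9:121846394. The main H3K4me3 peak lies between them. The promoter window of Ackr2, a chemokine scavenger receptor gene, met 1 male-list H3K27ac peak with a ratio of 0.02 and no H3K4me3 peak. That of 1700048O20Rik met H3K4me1 peaks in both lists with ratios of -0.17 and 0.05, and no H3K4me3 or H3K27ac peak. Just downstream of this window lay the weak element at 23.6 kb described above. Its H3K4me3 peaks began at chr9:121846731 in the male list and chr9:121846674 in the female list. Its H3K27ac peaks began at chr9:121846680 in the male list and chr9:121846708 in the female list. Which gene this element belongs to was not tested. The promoters of the 4 P450 genes themselves held no aligned IgG read that fixed their place, or were not in the table, so the main H3K4me3 peak is used in their stead and is not stated to be the annotated start.

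Cyp27a1 had small H3K4me3 and H3K27ac sex ratios at its main peak, all below 0. It had 1 H3K4me3 peak per list, chr1:74759213-74764095 with 1082 reads (1018 to 1148) in the male and chr1:74759353-74763603 with 1097 (1033 to 1164) in the female list, in the top 2.58% and 2.01% by reads. Their log2 ratios were -0.06 (the authors' p = 0.316) and -0.08 (p = 0.232). The H3K27ac peak of 16 kb at chr1:74758140-74774138 held 3020 male reads (2913 to 3130), with a ratio of -0.10 (the authors' p = 0.0415). In the female list 3 peaks of 1130, 897 and 209 reads overlapped it, with ratios of -0.05, -0.08 and -0.38.

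H3K4me1 at Cyp27a1 had a median log2 ratio of -0.23 over 19 peaks, 7 of them above 0. The female-list peak chr1:74758405-74771081 held 2255 reads (2163 to 2350), in the top 0.605% of its list, with a ratio of -0.34 (the authors' p = 2.77e-13). The same span was split in the male list, where the peak with the most reads, chr1:74766097-74770721, held 524 (480 to 571) with a ratio of -0.26 (the authors' p = 0.000427). A male-list peak at 18.2 kb from the midpoint, with 93 reads and no female partner, had a ratio of 0.79 (the authors' p = 8.2e-05). H3K4me1 ratios along this locus were of both signs, from -0.42 to 0.79, and none was called.

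H3K36me3 covered 52.3% of the Cyp27a1 window in the male list and 49.7% in the female one, in 3 and 4 islands whose ratios ran from -0.20 to 0.22. The island with the most reads, chr1:74715401-74753000 in the male list with 1606 reads, starts before the window and had a ratio of 0.06, and its female partner chr1:74714401-74753600 with 1407 reads had 0.04. At the other edge the window was grazed by an H3K27me3 island, chr1:74807601-74863200 in the male list with 2384 reads and chr1:74804001-74865200 in the female list with 3425 reads. Its log2 ratios were -0.35 (the authors' p = 9.09e-20) and -0.37 (p = 1.79e-22), and only 2.40 kb of the male and 6 kb of the female island lie in the window. Over both whole H3K27me3 lists 5.04% of islands had a p below 0.001 with a ratio below 0, and 9.72% with a ratio above 0. In RefSeq order Cyp27a1 is followed by Prkag3 and Wnt6. The start of Prkag3, a regulatory subunit gene of AMP-activated kinase, was located at chr1:74795530 and met H3K4me1 peaks with ratios of -0.33 and -0.26 and neither H3K4me3 nor H3K27me3.

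Cyp7b1 leaned to the male side in all 4 active marks. Its peaks of H3K4me3, H3K27ac, H3K4me1 and H3K36me3 numbered 80, with overlapping peaks of the male and female lists counted separately. Of the 80, 75 had a log2 ratio above 0, and 57 combined this with a p below 0.001. A ratio below 0 with such a p was found in 0. By mark, the 57 were 3 of 7 H3K4me3 peaks, 8 of 17 H3K27ac peaks, 32 of 39 H3K4me1 peaks and 14 of 17 H3K36me3 islands. Over both whole lists of each mark, 9.88% of H3K4me3, 7.1% of H3K27ac, 14.9% of H3K4me1 and 2.36% of H3K36me3 peaks had such a p with a ratio above 0, and 8.31%, 8.5%, 11.4% and 1.94% had it with a ratio below 0. Where the ratio only had to pass 0.5 in size at the same p, 54 of the Cyp7b1 peaks were on the male side and 0 on the female side, against 7.47% and 5.32% of all peaks pooled over the lists of these 4 marks and H3K27me3. The median ratio was 1.12 for H3K4me1, 0.68 for H3K36me3, 0.45 for H3K27ac and 0.20 for H3K4me3. For H3K4me3 it was 0.88 over the 3 peaks within 20 kb of the midpoint and 0.16 over the 4 beyond it. Over all peaks of each list the medians lay between -0.12 and 0.16 for these marks. Over peaks shared by both lists, which leave out those without a partner, they lay between -0.06 and 0.07.

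The main H3K4me3 peak of Cyp7b1, chr3:18140502-18144480, held 780 reads (726 to 837) in the male list and had a log2 ratio of 0.88 (the authors' p = 4.43e-24). In the female list the peak ran from chr3:18142333 to 18144251 and held 382 reads (345 to 422), with a ratio of 0.52 (the authors' p = 1.32e-07). Neither is called. The male peak spanned 3.98 kb and the female peak 1.92 kb, and the mean levels inside these separately called intervals were 38.5 (35.9 to 41.3) and 39.2 (35.3 to 43.3) RPKM. Since the intervals differ in width, the 2 means do not compare the sexes over the same bases. Next to it the male list had a peak at chr3:18139101-18140413 with 74 reads (58.1 to 92.9), which is absent from the female list and called male with a ratio of 2.60 (the authors' p = 2.23e-12). The hepatocyte marker Alb, the albumin gene, also had an H3K4me3 peak called male at its promoter, with a ratio of 1.46. The other 4 located hepatocyte markers had uncalled H3K4me3 ratios between -0.45 and 0.93, and what part such shifts have in the Cyp7b1 values was not tested.

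The H3K27ac domain after the main peak was the called peak with the most reads. In the male list it was 1 peak of 16.4 kb, chr3:18140522-18156967, with 3604 reads (3487 to 3724), a log2 ratio of 1.17 (the authors' p = 1.58e-121) and a rank in the top 1.28% of the list by reads. In the female list the same span was broken into 3 peaks. The nearest, chr3:18141235-18147500, held 720 reads (668 to 775) with a ratio of 0.95 (the authors' p = 3.1e-49) and was not called. The other two, chr3:18150147-18152090 with 144 reads (121 to 170) and chr3:18154338-18155340 with 49 reads (36.3 to 64.8), were called male with ratios of 1.2 (the authors' p = 2.78e-19) and 1.76 (p = 7.22e-19). Within 20 kb of the midpoint the median H3K27ac ratio was 1.06 over 6 peaks, and beyond it 0.35 over 11 peaks, with 3 and 0 calls.

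**Figure D3:**
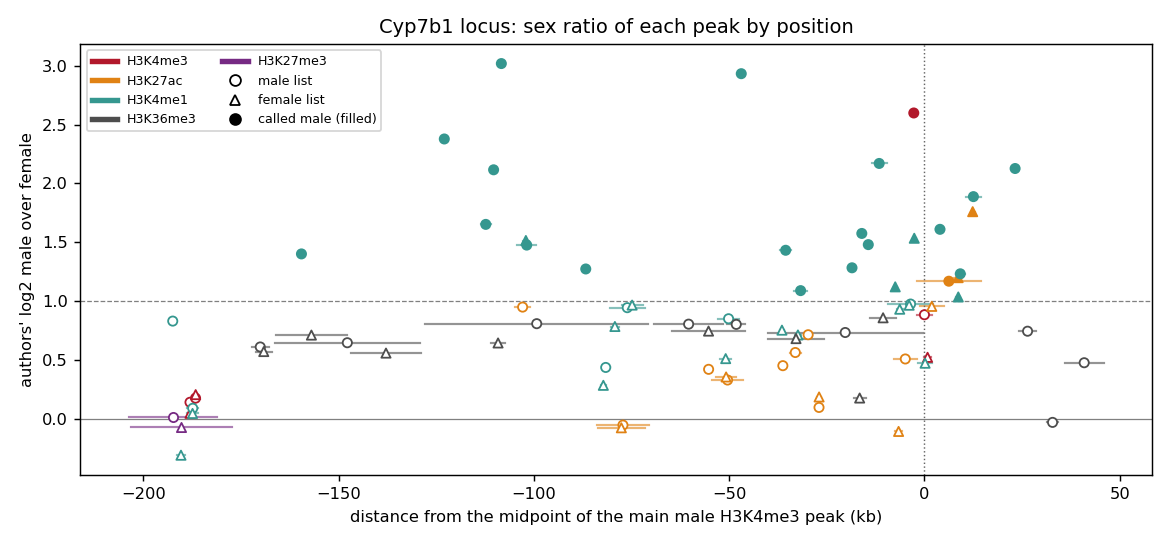
Deposited male over female log2 ratio (vertical axis) for every peak of the Cyp7b1 window against its distance from the midpoint of the main male H3K4me3 peak in kb (horizontal axis). Bars give peak widths, circles and triangles are peaks of the male and female list, and filled symbols are called male. Calls of H3K4me1 run from -159.54 to 23.22 kb, called H3K27ac lies within 20 kb of it, and the H3K27me3 and H3K4me3 peaks at the far left lie between -0.07 and 0.20.

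H3K4me1 gave most of the calls at Cyp7b1. The male list had 24 peaks covering 26% of the window and the female list 15 peaks covering 11.2%, against 5.87% and 6.91% of the autosomes. Of the 24 male-list peaks 18 were called male and 15 (62.5%) had no partner in the female list, compared with 15.2% of the whole male list. Of the 15 female-list peaks 4 were called male and 1 (6.67%) had no partner, compared with 28.4% of the whole female list. Over all marks, 24 peaks of the male list at Cyp7b1 had no partner, 4 of them among the best-scoring 50%. The share without a partner among the best-scoring peaks of the whole lists was not computed. The called peaks of the locus ran from -159.54 to 23.22 kb, a stretch of 184 kb. Male-list peaks that were called were smaller, with 32 to 469 reads and a median of 99, than the 6 that were not, with 41 to 1053 reads and a median of 371.

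The 5 called peaks with the largest ratios were all in the male list, without a female partner. They were the H3K4me3 peak named above and 4 H3K4me1 peaks. These were chr3:18033656-18034623 with 58 reads (44 to 75) and a log2 ratio of 3.02, chr3:18095150-18096009 with 54 reads (40.6 to 70.5) and 2.93, chr3:18018762-18020293 with 87 reads (69.7 to 107) and 2.38, and chr3:18129020-18132784 with 278 reads (246 to 313) and 2.17. The other 21 called peaks had ratios from 1.03 to 2.13 and 32 to 3604 reads. At the well-covered end, the male-list H3K4me1 peaks with the most reads were chr3:18061915-18070871 with 1053 (990 to 1119) and chr3:18133162-18144709, over the main H3K4me3 peak, with 1041 (979 to 1106). These rank in the top 0.936% and 0.969% of the list, and the second had a ratio of 0.97 (the authors' p = 5.66e-57), just short of a call. The female-list H3K4me1 peak with the most reads, chr3:18064956-18070299 with 475 (433 to 520), had a ratio of 0.97 (the authors' p = 1.06e-34).

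The distal elements of Cyp7b1 differed between H3K4me1 and H3K27ac. At the element at -77.2 kb from the midpoint, chr3:18058695-18071874, H3K27ac held 2214 male reads (2123 to 2308) with a log2 ratio of -0.06 (the authors' p = 0.278) and 1578 female reads (1501 to 1658) with -0.08 (p = 0.164). The H3K4me1 peaks over the same element had ratios between 0.28 and 0.97. At the element at -50.4 kb from the midpoint, H3K27ac ratios were 0.33 (the authors' p = 9.18e-06) and 0.35 (p = 7.98e-06), and the H3K4me1 peaks with the most reads had 0.85 and 0.51, beside the small called peak with 2.93 at its edge. At -103 kb, a male-list H3K27ac peak with 264 reads and no female partner had a ratio of 0.95 (the authors' p = 1.15e-07), and H3K4me1 was called male in both lists with ratios of 1.48 and 1.51. Of the 24 male-list H3K4me1 peaks 11 overlapped a male-list H3K27ac peak, with 7 calls and a median ratio of 1.23, and 13 did not, with 11 calls and a median of 1.57. Male-list H3K27ac peaks without a female partner numbered 5 of 10 (50%), compared with 21.2% of the whole list, and held 49 to 264 reads.

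H3K36me3 covered 68.4% of the Cyp7b1 window in the male list and 33.5% in the female list, the widest gap in percentage points between the sexes at the 4 loci. As a ratio of male to female share it was 2.04, below the 2.32 of H3K4me1 at the same locus and the 2.30 of H3K36me3 at Cyp8b1. The Cyp8b1 ratio depends on the window edge and was 0.83 in a window widened by 10 kb. The male list had 9 islands with 8370 reads over 177.8 kb, or 47.1 reads per kb, and the female list 8 islands with 2709 reads over 87 kb, or 31.1 reads per kb. These densities are not scaled to the reads inside all H3K36me3 peaks, 14557426 in the male list and 12881429 in the female list. The male islands with the most reads were chr3:18014601-18071800, with 2313 reads (2220 to 2409) and a log2 ratio of 0.81 (the authors' p = 1.17e-53), and chr3:17976201-18013200, with 2161 reads (2071 to 2254) and 0.65 (p = 2.97e-34). In the span of the former the female list had 1 island of 3.80 kb with 101 reads and a ratio of 0.64. The female island with the most reads, chr3:17995601-18013600 with 620 (572 to 671), had a ratio of 0.56 (the authors' p = 3.05e-13). In all, 14 of the 17 islands had a p below 0.001 and a ratio above 0, with ratios between 0.56 and 0.86, and 0 reached the ratio needed for a call. The 3 male islands beyond the main peak, centred at 26.4 to 40.9 kb, had no female partner and ratios of 0.74, -0.03 and 0.48.

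**Figure D4:**
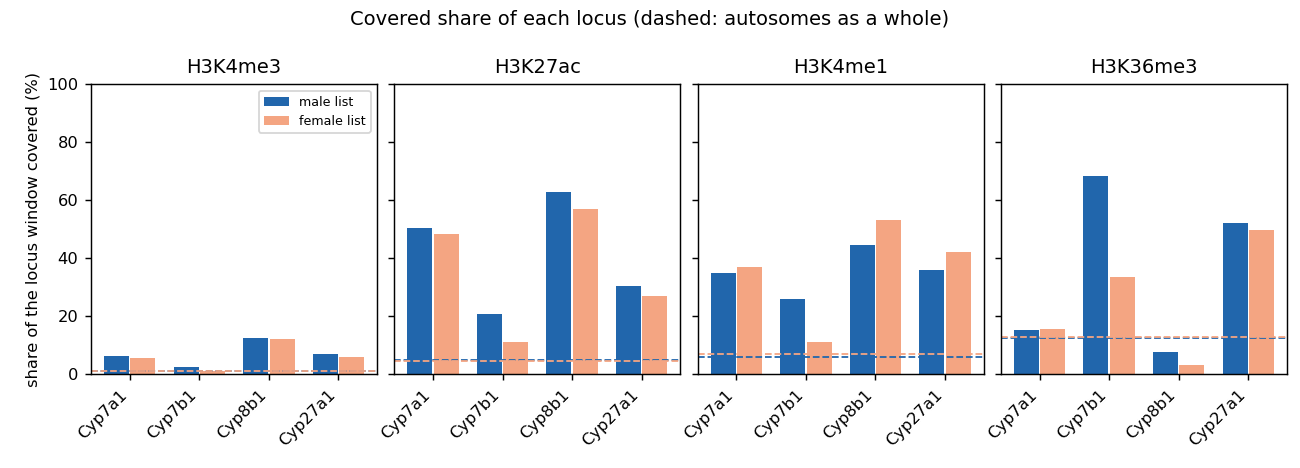
Share of each locus window covered by peaks of each mark in percent (vertical axis), for the male list (blue) and the female list (orange), with dashed lines for the autosomes. Cyp7b1 stands out by H3K36me3 at 68.4% against 33.5%, H3K4me1 at 26% against 11.2% and H3K27ac at 20.9% against 11.2%, and at Cyp7a1 the bars of the 2 lists differ least.

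The far end of the Cyp7b1 window carried a silent mark, with small ratios. An H3K27me3 island, chr3:17938801-17961200 with 1002 reads (941 to 1066) in the male and chr3:17939201-17965200 with 1186 (1119 to 1255) in the female list, had log2 ratios of 0.02 (the authors' p = 0.485) and -0.07 (p = 0.267). It held 2 small H3K4me3 peaks per list, with 33 to 39 reads and ratios from 0.05 to 0.20, and H3K4me1 peaks of 238 male and 353 female reads with ratios of 0.09 and 0.04. It also held an H3K4me1 peak of 41 reads in the male list alone, with a ratio of 0.83 (the authors' p = 0.00765), and one of 181 reads in the female list alone, with -0.31 (p = 0.0725). The island is centred at -192 kb in the male list, and the nearest H3K36me3 island begins at chr3:17970201 in the male list. In RefSeq order Cyp7b1 stands between Bhlhe22, a gene of a neuronal transcription factor, and Gm30667, and neither promoter was located in mm9.

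Coverage by the active marks set the loci apart in other ways. H3K27ac covered 62.9% of the Cyp8b1 window in the male list and 56.9% in the female one, 30.5% and 27.1% at Cyp27a1, and 20.9% and 11.2% at Cyp7b1. H3K4me1 covered 44.5% and 53.2% at Cyp8b1, 35.9% and 42.3% at Cyp27a1 and 35.1% and 37.0% at Cyp7a1, more in the female list. Over the autosomes the female H3K4me1 list also covered more, at 6.91% against 5.87% in the male list. The male H3K27ac list likewise covered more of the autosomes, at 5.04% against 4.45% in the female list. Windows of different length cannot be compared by these shares alone, since a longer window takes in more sequence far from the promoter.

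The IgG control gives the background at the same loci. Its 1 library with aligned reads, from a male of 7 to 8 weeks in an earlier record, had a density relative to the autosomal mean of 1.36 (1.23 to 1.49) at Cyp7a1, 1.43 (1.36 to 1.5) at Cyp7b1, 0.970 (0.855 to 1.1) at Cyp8b1 and 1.27 (1.14 to 1.40) at Cyp27a1. The locus with most calls was thus also the one with the highest IgG density, by a margin within counting error of Cyp7a1. A female IgG library was not analysed here, and the part of this background in the sex ratios was not tested.

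The other genes of bile acid metabolism were followed at the promoters that could be located in mm9. Of 18 further enzyme genes 6 were located, of 15 transporter genes 12, of 20 regulators 13 and of 14 genes of cholesterol supply 4. H3K4me3 was in both lists at 5 of the 6 enzyme promoters, 10 of 12 transporters, 12 of 13 regulators and 4 of 4 cholesterol supply genes, and H3K27ac at 6, 10, 11 and 4 of them. Over all 12598 genes with a located promoter these shares were 45.1% for H3K4me3 and 47.0% for H3K27ac. H3K27me3 in both lists was found at 1 transporter promoter, that of Abcc4, and at 1 regulator promoter, that of Esrrg, an orphan nuclear receptor gene.

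H3K4me3 was called at 1 gene each of 3 lists, all male. These were Akr1c6, a hydroxysteroid dehydrogenase gene, Slco1a1, an organic anion uptake transporter gene, and Nr5a2, which encodes the nuclear receptor LRH-1 that acts on Cyp7a1 and Cyp8b1. Akr1c6 had a log2 ratio of 1.27 and Slco1a1 of 1.83 at the peak with the most reads, whereas Nr5a2 had 0.03 at that peak and was called through a smaller peak, and it is named here after its values were seen. H3K4me1 was called male at 1 promoter of these lists, that of the liver transcription factor gene Onecut1, with a ratio of 1.01. Of 6387 genes with an H3K4me1 peak at a located promoter, 90 had it called male and 61 female. Within 1 kb of the start, 1 transporter gene had a male H3K4me1 call as well. Among all genes with a peak of the mark at a located promoter, 1.72% had H3K4me3 called male and 0.619% female. For H3K27ac 0.463% were called male and 0.719% female. No H3K27ac peak at the promoters of the 4 lists was called in either direction, and the H3K27ac medians were -0.13 for enzymes, -0.01 for transporters, -0.05 for regulators and -0.12 for cholesterol supply, against 0.06 over all genes. H3K4me3 medians were -0.34, -0.10, -0.19 and -0.46, against -0.01.

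**Figure D5:**
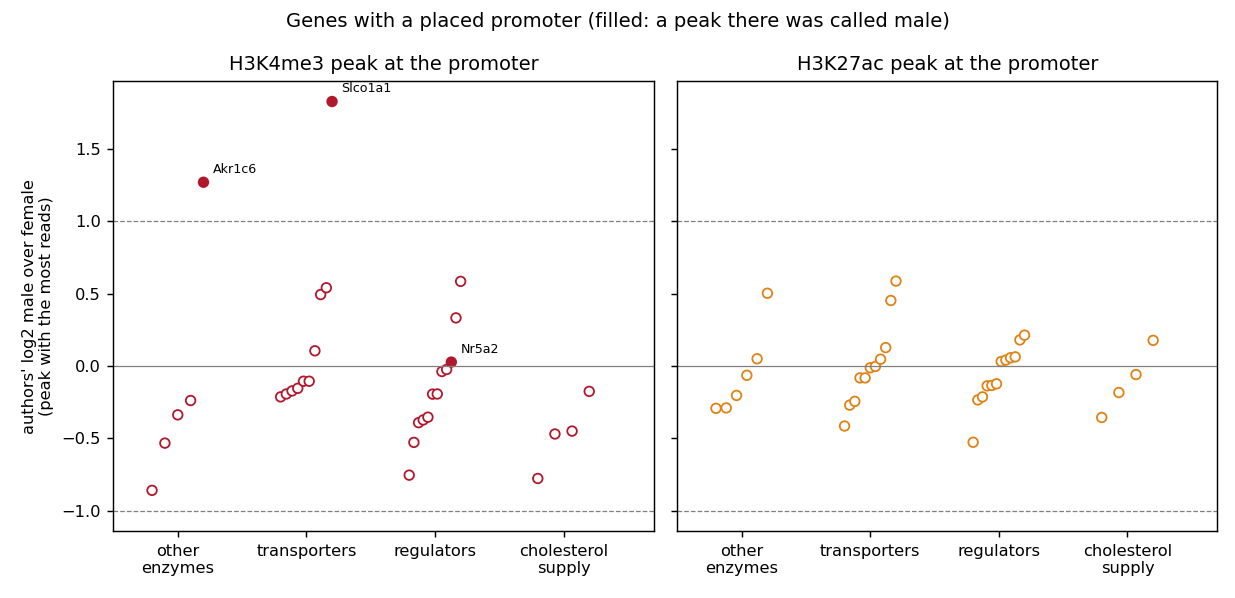
Deposited male over female log2 ratio (vertical axis) of the H3K4me3 peak (left) and H3K27ac peak (right) with the most reads at each located promoter, by gene list. Each circle is a gene and filled circles are genes with a peak called male there. Slco1a1 and Akr1c6 lie above the dashed line at 1 in H3K4me3, Nr5a2 is filled near 0, and no H3K27ac value is called.

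The largest H3K27ac ratios in size were those of Slco1a1 at 0.59, Abcc4 at 0.45 and Slco1a4 at -0.41 among transporters, Akr1c6 at 0.50, Acox2 at -0.29 and Acnat2 at -0.29 among enzymes, Esrrg at -0.53 and Onecut1 at -0.23 among regulators, and Srebf2 at -0.35 among cholesterol supply genes. None of these passed the call. Among the receptors and transporters best known for control of bile acids, Nr1h4, the gene of the bile acid receptor FXR, had an H3K27ac ratio of 0.21, and Abcb11, the bile salt export pump gene, had -0.27. Abcc4 encodes an efflux transporter of the sinusoidal membrane and Srebf2 a regulator of cholesterol synthesis. H3K27ac ratios at these located promoters ran from -0.53 to 0.59. Over the main H3K4me3 peak of Cyp7b1, the H3K27ac peak with the most reads had 1.17 in the male list and 0.95, uncalled, in the female list.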

How the data were processed

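Chromatin from male and female mouse liver was profiled for 6 histone marks, and the deposited peak lists were used as given. Reads were aligned with Bowtie to mm9, and SICER 1.1 is named for islands, per the submitters' processing notes. SICER windows and gaps were 400 and 2400 bp for H3K27me3 and H3K9me3 and 200 and 800 bp for H3K36me3, per the labels. H3K4me3, H3K27ac and H3K4me1 peaks have columns of MACS type, per the file headers, and no label or header used here gives the version. The lists hold the authors' read counts per peak, which some H3K27ac rows give to 3 significant digits, and the authors' fold over control as a ratio. They also hold the authors' peak score, FDR in percent, and p-values. The authors' log2 ratio of male over female signal, its p-value and the call were also deposited, and neither labels nor headers state how that ratio was normalized. The 34 histone libraries share 12 distinct files, so the libraries of a mark and sex appear to have been pooled by the authors. The deposited counts show no separate libraries.

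Peaks were assigned to a locus by an overlap of at least 1 bp, and no filter on low values was used, so all 197 members entered. SICER starts and ends were raised by 1 to count from 1. A peak was shared where it met a peak of the other sex by at least 1 bp. Own values were RPKM levels scaled to the reads inside all peaks of a list, covered shares, and medians of the deposited log2 ratio. No test between animals was possible. Promoter windows of RefSeq (build GRCm38.p6, 250 bases before and 50 after the start) were located in mm9 by exact match of 35-base aligned IgG reads, which placed 14287 of 31396 windows (45.5%) for 12598 genes. Of the matching reads 29479 had the orientation the placement needs and 61 the opposite one. Values are named in full for the main H3K4me3 peak, the called peaks (at most 5 of the largest ratio per locus), the peak of each mark with the most reads and every H3K27me3 island. For gene lists, up to 5 genes with the largest H3K27ac ratio are eligible to be named. The members, gene lists and rules were chosen with earlier results of these data known. Sex chromosomes were not analysed here, since the lists cover 19 autosomes, nor were 3 of the 4 IgG libraries. Scripts were tested on simulated data and used Python 3.11.15, pandas 2.3.3, numpy 2.4.6, scipy 1.17.1 and matplotlib 3.10.9.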

Additional observations from a re-analysis of the deposited data

How the results depend on the processing

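No paired analysis was possible because the libraries of each mark and sex share 1 list, and for the same reason no replicate could be left out. With the p threshold kept and an absolute log2 ratio of at least 0.5, the calls became 6 at Cyp7a1, 54 at Cyp7b1, 5 at Cyp8b1 and 1 at Cyp27a1, all male except for 4 female at Cyp8b1. With no minimum ratio they became 10, 57, 10 and 9, of which 2, 0, 7 and 8 were female. At that p, 14.9% of H3K4me1 peaks in the whole lists had a ratio above 0 and 11.4% below 0. The shares were 7.1% and 8.5% for H3K27ac, and 9.88% and 8.31% for H3K4me3. For H3K36me3 they were 2.36% and 1.94%, and for H3K27me3 9.72% and 5.04%. Pooled over the whole lists of the 5 marks with peaks at these loci, 7.47% of peaks were male and 5.32% female at 0.5. The best-scoring 50% of peaks held 10 calls at Cyp7b1 and 0 at Cyp7a1, with no share over the whole lists computed at this setting. Centring the ratios on the shared peaks, widening the windows by 10 kb or asking for 50% of a peak inside the window kept each count of calls within 1.5 times.

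Peaks without a partner in the other sex fell from 24 to 4 in the male list of Cyp7b1 among the best-scoring peaks, and to 0 in both lists of Cyp7a1, Cyp8b1 and Cyp27a1. How far such peaks fell over the whole lists was not computed. With lists of equal length they became 1 in the female list of Cyp7a1, 0 in the male list of Cyp8b1 and 1 in the male list of Cyp27a1. The female list of Cyp8b1 had 2 when 50% of the peak had to be covered and 3 in the widened window. The covered share of H3K36me3, male over female, moved from 2.04 to 4.44 at Cyp7b1 among the best-scoring peaks, and from 2.30 to 0.83 at Cyp8b1 in the widened window. Weighted by width, the median H3K4me3 ratio of Cyp7a1 was 0.95. Reads were also summed over the locus and scaled to the reads inside all peaks of each list. The log2 ratio of H3K36me3 was then 1.45 at Cyp7b1 and 1.06 at Cyp8b1. At Cyp7b1 the densities before scaling were 47.1 reads per kb over 177.8 kb in the male list and 31.1 over 87 kb in the female one. At Cyp27a1 the scaled ratio of H3K4me3 was -0.021 and that of H3K27me3 -1.56. These sums take only the part of each separately called peak that lies inside the window, 4.6 kb male and 2.0 kb female at Cyp8b1 and 2.40 and 6 kb at Cyp27a1. With whole peaks, an alternative added after seeing the data, the H3K36me3 values were 1.45 and -0.47 (241 male and 295 female reads at Cyp8b1) and those of Cyp27a1 -0.021 and -0.38, so 1.06 and -1.56 are not read as sex ratios of the islands. Centred on shared peaks, the medians of Cyp27a1 for H3K4me3 and H3K27me3 were -0.10 and -0.38. At least 2 reads located 5044 promoter windows. The cause of these shifts was not tested. Besides these, 138 counts, medians and ratios under an alternative stayed within the margins. For most medians the margin was the standard deviation among the peaks of the locus, so large shifts could stay within it. From summed reads, H3K4me3 at Cyp7b1 was 1.05 against a median of 0.204, with a margin of 0.905. H3K4me1 there was 1.70 against 1.12, with a margin of 0.73. H3K4me3 at Cyp7a1 was 0.655 against 0.114, with a margin of 0.822. Covered shares of single lists stayed in 57 of 72 and moved in 15, among them H3K36me3 at Cyp7b1 with 61.8% male and 13.9% female among the best-scoring peaks, H3K36me3 in the female list of Cyp8b1 with 11.8% in the widened window, and H3K27me3 at Cyp27a1 there with 13.8% male and 17.8% female. The 5 largest ratios rest on 54 to 278 reads.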
